A study of Homo sapiens with 6 samples.

Results

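The 50 genes described here encode regulators of pre-mRNA splicing, and among them MATR3 stood apart in DU145 cells treated with taraxasterol (TAX): its level was 2.29-fold lower than in control cells, while the other members lay close to their control levels. The members were taken by name from the 23062 identifiers of the deposited tables. They are the 26 symbols that start with HNRNP and the 12 that start with SRSF, without hyphenated names, and 12 further splicing factors, namely MATR3, SFPQ, NONO, PTBP1, PTBP2, TRA2A, TRA2B, RBM39, U2AF1, U2AF2, SF1 and SF3B1. The set was drawn up when the difference between TAX and control was already known, and MATR3 was selected on its fall in these libraries, 1 of the largest of the series. For this reason the differences are given as descriptions, and counts of called genes are printed beside the share of all tested genes without drawing anything from them. The DU145 line was derived from human prostate cancer and is labelled wild type. RNA of control cells kept in MEM medium and of cells treated with TAX at its IC50, both for 48 h, was sequenced in 3 libraries per group. TAX was dissolved in DMSO, and the sources used here do not say whether control cultures received DMSO, so solvent and TAX cannot be told apart. The labels do not say whether the 3 libraries of a group came from separate cultures, and the study's methods state only in general that experiments were repeated, so the spread between libraries may be technical.

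Splicing removes introns from nascent transcripts in the spliceosome, which assembles anew on every intron. Heterogeneous nuclear ribonucleoproteins (hnRNPs) coat nascent RNA and often repress nearby splice sites, while SR proteins, named for their stretches of serine and arginine, bind exons and recruit the core machinery. SF1 and the heterodimer of U2AF1 and U2AF2 mark the branch point and the end of the intron, where the U2 particle with SF3B1 then binds. Matrin 3, the product of MATR3, is an abundant RNA-binding protein of the nuclear matrix that interacts with PTBP1 and with the paraspeckle proteins SFPQ and NONO.

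Values are FPKM (fragments per kilobase of transcript, scaled to the mapped fragments of the library), a unit corrected for length in which levels of different genes can be set side by side. Where a gene is given library by library, replicates 1, 2 and 3 follow in that order. Summed FPKM lay between 322483 (control replicate 3) and 363724 (control replicate 1), and between 3997 and 4798 genes per library were listed at 0. Read counts were not given, so the depth behind a value is unknown. Pairs of libraries from the same group correlated across tested genes, which are no replicates of one another, with Pearson's r of 0.991 to 0.995 on the log2 scale, and pairs from different groups with 0.989 to 0.993, so the pairs do not separate by group. Of the epithelial markers KRT8, KRT18, KRT19, EPCAM and CDH1, all 5 were at 40.7 FPKM or more in every library, while KLK3 was listed at 0 throughout and TMPRSS2 reached at most 0.0191 FPKM. The 6 markers of leukocytes, fibroblasts and endothelium summed to 1.97 to 2.12 FPKM in control libraries, against 1.51 to 1.56 FPKM under TAX, most of it from COL1A1, with CD3E at 0 in every library. The part of these markers in the results below was not tested.

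Of the 50 members, 46 reached 1 FPKM in at least 3 of the 6 libraries and entered the comparison. The 4 others were HNRNPCL1, HNRNPCL2, HNRNPCL3 and HNRNPCL4, relatives of HNRNPC that lie on chromosome 1. HNRNPCL1, HNRNPCL2 and HNRNPCL4 were listed at 0 in every library, and HNRNPCL3 had 0.00742 FPKM in control replicate 2 and 0 elsewhere. The transcripts of these 4 genes share 67.6% to 96.4% of their 31-base words with transcripts of other names, mostly with each other, so their values are of uncertain origin. The whole set took 1.24% to 1.34% of the summed FPKM of a library.

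Splicing factors were among the most abundant messages of these cells. The median control mean of the 46 members was 80.2 FPKM, against 9.51 FPKM for all 12359 tested genes, and 32 members lay in the top 10% of tested genes. The 10 highest carried 52.9% of the summed control FPKM of the set. The hnRNP genes spanned the widest range, from 4.19 to 360 FPKM, the SRSF genes ranged from 2.18 to 142 FPKM and the remaining factors from 4.84 to 122 FPKM.

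**Figure D1:**
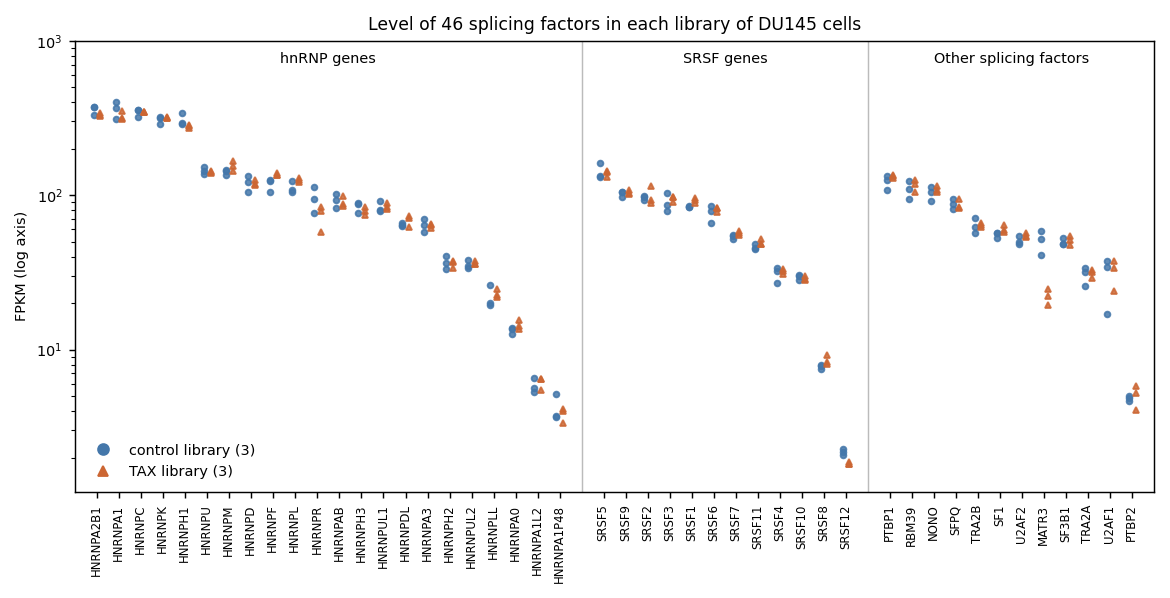
FPKM on a log axis of the 46 splicing factors above the filter, in the 3 control libraries (circles) and the 3 TAX libraries (triangles), ordered by control mean within each family. Symbols of both groups lie over each other for most genes, and MATR3, at 40.7 to 58.8 FPKM in control and 19.5 to 24.6 FPKM in TAX libraries, is the exception that can be seen by eye.

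HNRNPA2B1 and HNRNPA1, the A/B-type hnRNPs that bind introns and compete with SR proteins, were the highest of all members. HNRNPA2B1 had 373, 332 and 375 FPKM in control, against 328, 340 and 329 FPKM under TAX. HNRNPA1 had 365, 309 and 403 FPKM in control, against 311, 348 and 317 FPKM under TAX. For both genes the groups overlapped through control replicate 2, whose HNRNPA1 value was the lowest of all 6. HNRNPC, which binds uridine tracts, had 357, 353 and 320 FPKM in control, against 344, 348 and 347 FPKM under TAX. The TAX means of HNRNPA1 and HNRNPC, 325 and 346 FPKM, differed from the control means by less than the control SD. That of HNRNPA2B1, 332 FPKM, was lower by more than the control SD. In control cells HNRNPA2B1, HNRNPA1 and HNRNPC had means of 360 ± 24.0, 359 ± 47.2 and 343 ± 20.5 FPKM (SD, n = 3 each). HNRNPK and HNRNPH1 followed with 307 ± 16.2 and 306 ± 28.6 FPKM, and after them the order dropped to HNRNPU with 144 ± 7.17 FPKM (SD, n = 3 each). At the lower end stood HNRNPA0 with 13.3 ± 0.623 FPKM and the HNRNPA1 copies HNRNPA1L2 with 5.83 ± 0.647 and HNRNPA1P48 with 4.19 ± 0.853 FPKM in control cells (SD, n = 3 each).

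Both copies share sequence with HNRNPA1. HNRNPA1P48 shares 55.7% of its 31-base words with HNRNPA1. HNRNPA1L2, a single-exon gene on chromosome 13 from 52642425 to 52643796 (GRCh38, GENCODE 29), shares 76.4% of its 31-base words with other names, 59.2% with HNRNPA1 alone. Over the 960 coding bases without the stop codon, HNRNPA1 and HNRNPA1L2 differ at 15 bases. The 60 coding bases with the most differences, counted from 1 at the start codon from 589 to 648, are shown to make visible how a read of this stretch could be placed, with the differing bases in capitals and the letters taken from GENCODE 29 transcripts.
HNRNPA1: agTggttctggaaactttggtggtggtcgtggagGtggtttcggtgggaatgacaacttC
HNRNPA1L2: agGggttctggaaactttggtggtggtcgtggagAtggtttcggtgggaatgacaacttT
Reads from the shared words cannot be told apart by sequence, and how the authors treated reads with several matches is not given in the sources used here. The TAX mean of HNRNPA1L2 was 6.09 ± 0.562 FPKM and that of HNRNPA1P48 3.84 ± 0.432 FPKM (SD, n = 3 each), both overlapping with the control libraries.

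Among the SR proteins, SRSF5 was highest in control cells. Its FPKM was 161, 134 and 130 in the control and 142, 130 and 143 in the TAX libraries. SRSF9 had 96.7, 104 and 105 FPKM in control, against 103, 107 and 101 FPKM under TAX. SRSF2, an enhancer-binding SR protein, had 99.0, 97.3 and 93.7 FPKM in control, against 89.5, 115 and 93.1 FPKM under TAX. The groups of these 3 genes overlapped, with the highest SRSF2 value in TAX replicate 2. SRSF9, SRSF2 and SRSF3, with control means of 102 ± 4.51, 96.7 ± 2.68 and 89.4 ± 12.1 FPKM (SD, n = 3 each), overlapped pairwise with their neighbours in the order of levels. SRSF12, a little-expressed repressor, was lowest with 2.18 ± 0.105 FPKM (SD, n = 3). SRSF9 and SRSF2 overlap with GATC and MFSD11 on the opposite strand over 46.2% and 36.7% of their exonic bases, and whether reads were counted by strand is not known. MFSD11 had 12.4 to 14.0 FPKM in control libraries, against 14.3 to 16.1 FPKM under TAX, and its part in the SRSF2 values was not tested. SRSF1 shares 56.6% of its exonic bases on the same strand with AC015813.2, which was listed at 5.42 to 7.79 FPKM.

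Of the 12 further factors, PTBP1, which represses exons by binding pyrimidine tracts, was highest. PTBP1 had 134, 125 and 108 FPKM in control, against 133, 135 and 129 FPKM under TAX. Its neuronal paralog PTBP2 had 4.62, 5.02 and 4.88 FPKM in control, against 5.78, 5.27 and 4.08 FPKM under TAX. PTBP1 thus exceeded PTBP2 22.0- to 31.6-fold in every library. RBM39, a U2AF2-related SR-like protein, had 110, 124 and 95.0 FPKM in control, against 126, 105 and 118 FPKM under TAX. SF3B1, the U2 component that clasps the branch point, had 49.7 ± 2.60 FPKM in control, against 51.2 ± 3.69 FPKM under TAX, and SF1 had 55.5 ± 2.46 and 60.2 ± 3.21 FPKM (SD, n = 3 each). The paralogs TRA2A and TRA2B, activators of exons rich in purines, kept a ratio of 0.454 to 0.510 in all 6 libraries.

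Which of these genes differed with TAX was asked with limma over the 12359 tested genes, using log2(FPKM + 1) and Benjamini-Hochberg adjustment. At an adjusted p under 0.05, 39 genes were higher and 20 genes were lower, 0.316% and 0.162% of tested genes and 0.477% together. When every library was shifted to a common median, the counts were 46 and 50, and after quantile normalization 47 and 48. Among the 46 splicing factors, 0 were called higher and 1 was called lower, which was MATR3. At an unadjusted p under 0.05, 2 members were counted (10.1% of all tested genes), HNRNPF with higher TAX values (7.73%) and MATR3 with lower (2.41%). With a change of at least 1.5-fold in addition, MATR3 was the 1 member left (0.437%), with lower TAX values (0.21%), and 0 were higher (0.227%). The fitted value was higher with TAX for 31 members (69.1%) and lower for 15 (30.9%). No overlap between the 3 TAX and the 3 control values was seen for 8 members (17.9% of all tested genes), 5 with higher TAX values (14.6%) and 3 with lower TAX values (3.34%). The limits of this comparison are the 3 libraries per group and the filter, since without a filter on low values 0 genes were higher and 1 was lower by adjusted p, and MATR3 was not among the calls.

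**Figure D2:**
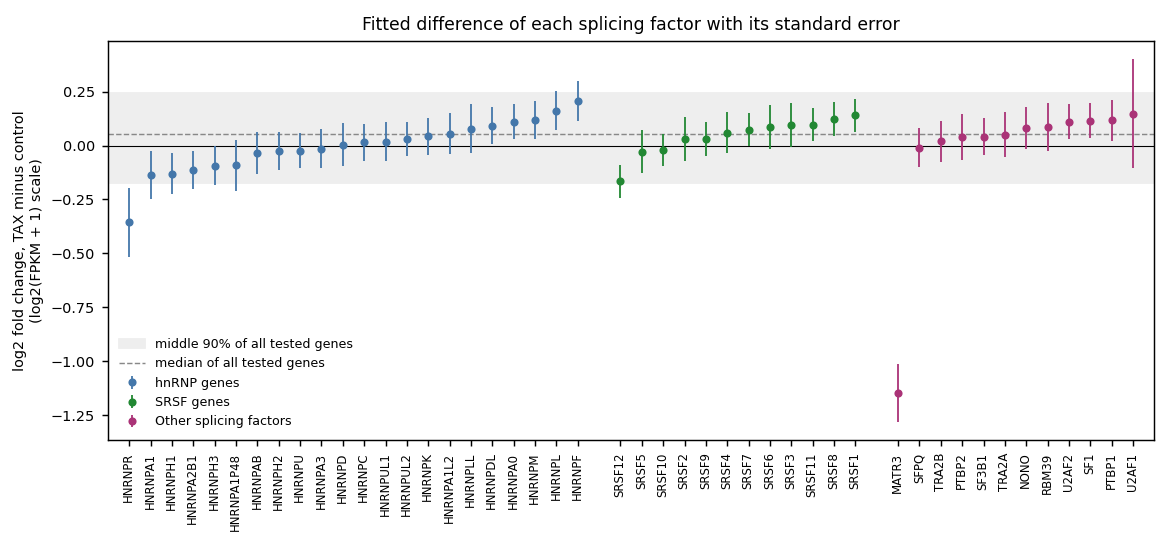
Fitted log2 fold change, TAX minus control, on the log2(FPKM + 1) scale for the 46 splicing factors, with bars of 1 standard error. The dashed line is the median of all tested genes (0.054) and the grey band their 5th to 95th percentile (-0.17 to 0.24); MATR3 at -1.15 and HNRNPR at -0.36 lie below the band.

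MATR3 lay at 40.7, 58.8 and 52.2 FPKM in the control libraries, and under TAX it lay at 22.2, 24.6 and 19.5 FPKM. Every TAX library was below every control library, and the lowest control value exceeded the highest TAX value by 16.0 FPKM. The means were 50.5 ± 9.16 FPKM in control, against 22.1 ± 2.59 FPKM under TAX (SD, n = 3 each). The log2 fold change was -1.15 with a standard error of 0.13. In these bulk libraries, fewer cells with the message and less of it per cell cannot be told apart. By size of change MATR3 ranked 5 among the falls of all tested genes, 9 of which (0.0728%) had a log2 fold change of -1 or lower. The next member in this order, HNRNPR, had -0.36. With 1 library left out at a time, the log2 fold change of MATR3 ranged from -1.29 (without control replicate 1) to -1.03 (without control replicate 2), and without control replicate 3 it was -1.12 and no longer passed an adjusted p under 0.05 (adjusted p = 0.0556 from limma).

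The genes of proteins that act together with matrin 3 overlapped between groups. SFPQ had 93.8, 80.9 and 87.1 FPKM in control, against 82.2, 93.7 and 84.2 FPKM under TAX. NONO had 114, 105 and 91.6 FPKM in control, against 104, 115 and 109 FPKM under TAX. The fitted values were near 0, with log2 fold changes of -0.0094 (standard error 0.091) for SFPQ and 0.082 (standard error 0.097) for NONO. The ratio of MATR3 to SFPQ, which does not depend on the scaling of a library, was 0.433, 0.726 and 0.599 in the control and 0.270, 0.263 and 0.231 in the TAX libraries. Relative to the median of the other tested members, MATR3 stood at 0.637 ± 0.143 in control, against 0.275 ± 0.0240 under TAX (SD, n = 3 each). NONO and SFPQ, which form a heterodimer, had a ratio of 1.05 to 1.30 over the 6 libraries.

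**Figure D3:**
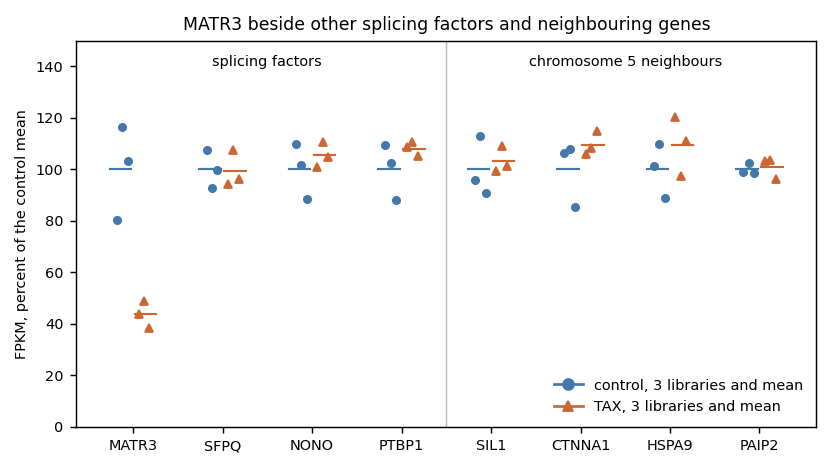
FPKM as a percentage of the control mean for MATR3, for SFPQ, NONO and PTBP1, and for SIL1, CTNNA1, HSPA9 and PAIP2 on chromosome 5, with 3 control libraries (circles), 3 TAX libraries (triangles) and group means (lines). All TAX values of MATR3 lie below its control values, and the groups of the 7 other genes overlap.

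The name MATR3 covers a pair of Ensembl genes on the plus strand of chromosome 5 in GENCODE 29 (GRCh38), while the tables hold 1 row of that name. ENSG00000280987 extends from 139273752 to 139331671 and ENSG00000015479 from 139293648 to 139331677, so their starts are 19.9 kb apart and their ends nearly coincide. They share 5141 exonic bases, 80.9% of those of ENSG00000280987 and 42.5% of those of ENSG00000015479. The long noncoding RNA SNHG4, a host of small nucleolar RNAs, lies in the upstream part, where 626 of its 4469 exonic bases overlap with exons of ENSG00000280987. SNHG4 is not analysed here. How reads were divided between these genes, and which of the pair the row holds, cannot be told from the tables. Of the tested names, 27 belong to more than 1 Ensembl gene, and MATR3 was the 1 of them (3.70%) with an adjusted p under 0.05, beside 0.477% of all tested genes. Since MATR3 was selected on its fall, nothing is drawn from this count.

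**Figure D4:**
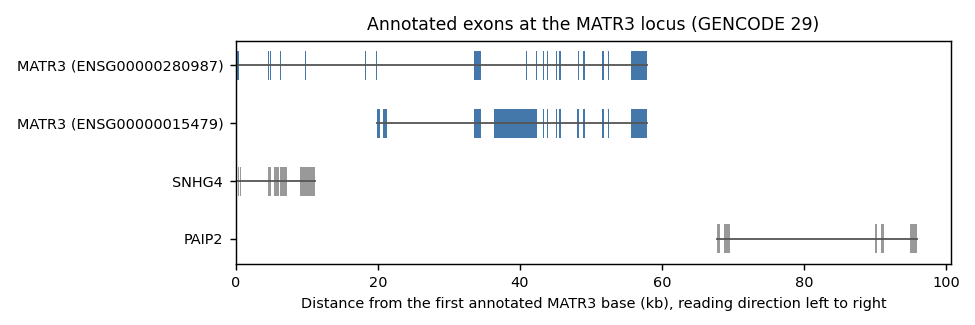
Annotated exons (boxes, merged over transcripts) of both Ensembl genes named MATR3, of SNHG4 and of PAIP2, by distance in kb from the first annotated MATR3 base. The starts of the MATR3 genes lie 19.9 kb apart and their downstream exons coincide, while each gene also has exonic sequence of its own.

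RefSeq (GRCh38.p14) likewise gives 2 starts for MATR3, and the sequences around them are shown because the value in the tables may join transcripts of both. Each runs on the plus strand from 250 bases before to 50 bases after the start, chr5:139273851-139274150 for the upstream and chr5:139293490-139293789 for the downstream start. Capitals mark matches on either strand to any of 8 motifs, namely the GC box (GGGCGG), the CCAAT box (CCAAT), the E-box (CACGTG), a core of ETS factors (CCGGAAG), of NRF1 (GCATGCGC) and of YY1 (AAGATGGC), the cyclic AMP response element (TGACGTCA) and the TATA box (TATAAA).
MATR3 upstream start: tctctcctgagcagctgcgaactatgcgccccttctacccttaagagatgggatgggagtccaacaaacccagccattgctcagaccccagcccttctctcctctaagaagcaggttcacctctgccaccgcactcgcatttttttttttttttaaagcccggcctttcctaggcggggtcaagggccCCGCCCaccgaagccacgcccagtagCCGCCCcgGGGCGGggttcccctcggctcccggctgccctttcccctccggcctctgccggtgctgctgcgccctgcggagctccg
MATR3 downstream start: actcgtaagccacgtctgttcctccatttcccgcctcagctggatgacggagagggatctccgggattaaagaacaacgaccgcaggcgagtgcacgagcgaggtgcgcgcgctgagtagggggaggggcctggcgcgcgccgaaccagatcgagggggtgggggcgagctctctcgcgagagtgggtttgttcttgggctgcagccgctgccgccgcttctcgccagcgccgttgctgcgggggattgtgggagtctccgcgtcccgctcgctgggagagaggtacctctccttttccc
The upstream window held 3 matches, all to the GC box, and 19 CG dinucleotides, while the downstream window held none of these letters and 32 CG dinucleotides. The tables give no value per start. Of 57 promoter windows listed for 40 of the tested members, 63.2% held the GC box, 43.9% the CCAAT box and 17.5% the E-box, compared with 67.5%, 34.6% and 9.45% of 13789 windows of all tested genes. The ETS core was found in 12.3% of the member windows and 17.8% of all, the NRF1 core in 7.02% and 4.90%, and the TATA box in 10.5% and 5.93%. The YY1 core and the cyclic AMP response element, held by 4.98% and 2.86% of all windows, were in 0 member windows. The median GC content was 65.0% in both sets.

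Genes next to MATR3 were read as values of the same stretch of chromosome 5. SIL1, a nucleotide exchange factor of the endoplasmic reticulum, lies on the opposite strand, shares 105 exonic bases with ENSG00000280987 and starts at 139293557, within the downstream window. It had 10.1 to 12.6 FPKM over all 6 libraries. PAIP2, a translation repressor 9.91 kb downstream, lay at 62.0 to 66.7 FPKM. CTNNA1 and HSPA9, 339 and 698 kb upstream, had control means of 113 and 128 FPKM and overlapped between groups. LRRTM2, SLC23A1 and MZB1 were below the filter, with at most 0.331 FPKM. The neighbours that were expressed thus overlapped between control and TAX-treated cells.

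Of the 45 tested members other than MATR3, 44 had a log2 fold change within 0.25 of 0 (exceeded by 7.01% of all tested genes). Within 2 standard errors of 0 lay 42 of the 45. The share of all tested genes within this limit was not computed, so nothing is drawn from that count. By unadjusted p under 0.05 (limma), 10.1% of all tested genes were counted. The standard errors of the 45 members had a median of 0.091. The exception in size was HNRNPR, a relative of SYNCRIP, with 113, 76.2 and 93.8 FPKM in control, against 79.3, 83.5 and 57.5 FPKM under TAX. Its groups overlapped, and the log2 fold change of -0.36 (standard error 0.16) ranged from -0.50 (without control replicate 2) to -0.19 (without TAX replicate 3) with 1 library left out, and was -0.22 without control replicate 1. The highest value exceeded the lowest 1.96-fold, whereas the median of this ratio over the tested members was 1.23.

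HNRNPF, a binder of G-tracts, had 124, 125 and 105 FPKM in control, against 134, 134 and 139 FPKM under TAX. Its groups did not overlap, and its log2 fold change of 0.21 (standard error 0.092) was the highest fitted value of the members. Without control replicate 3 it was 0.12, and after quantile normalization 0.13. The related HNRNPH1 had 339, 291 and 288 FPKM in control, against 271, 281 and 284 FPKM under TAX, also without overlap but with the values on the other side. The log2 fold change of HNRNPH1 was -0.13 (standard error 0.094), or -0.055 without control replicate 1. Neither gene passed the adjusted threshold.

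SRSF1, the prototype SR protein, had 84.1, 84.8 and 83.3 FPKM in control, against 95.7, 93.6 and 88.9 FPKM under TAX. SRSF11 had 45.0, 48.3 and 45.3 FPKM in control, against 48.4, 48.3 and 51.7 FPKM under TAX, so its groups are apart only in the digits not printed. In SRSF8, a retrocopy of SRSF2, the values were 7.77, 7.95 and 7.53 FPKM and 8.05, 9.24 and 8.32 FPKM. SF1, which binds the branch point, had 57.1, 56.7 and 52.7 FPKM in control, against 59.3, 63.8 and 57.6 FPKM under TAX. The TAX values of these 4 genes were all above the control values, by log2 fold changes of 0.097 to 0.14 with standard errors of 0.077 to 0.081. Without TAX replicate 2 the log2 fold change was 0.071 for SRSF8 and 0.073 for SF1. After median centring or quantile normalization the values of the 4 genes were 0.025 to 0.082. SRSF12 had 2.29, 2.08 and 2.16 FPKM in control, against 1.81, 1.81 and 1.88 FPKM under TAX, all TAX values being below the control values (log2 fold change -0.16, standard error 0.077). These differences are smaller than 1.5-fold, and none passed the adjusted threshold.

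The family medians lay near the median of all tested genes. The median log2 fold change was 0.0090 for 22 hnRNP genes, 0.066 for 12 SRSF genes and 0.066 for the 12 further factors, beside 0.054 for all tested genes, and after quantile normalization the 3 medians were -0.061, -0.0048 and 0.0032, beside 0.0037. Relative to the median of all genes, 20 members lay above and 26 below. The median standard deviation between libraries of one group on the log2 scale was 0.062 for the SRSF genes, 0.099 for the hnRNP genes and 0.12 for the further factors, compared with 0.11 for all tested genes. Control replicate 3, the library with the lowest summed FPKM, held the lowest value of 23 members, and control replicate 1, with the highest sum, held the highest value of 17. With each library centred, the hnRNP, SRSF and further medians were -0.049, 0.0082 and 0.0080, beside -0.0034 for all tested genes. With 1 library left out, the median of the further factors ranged from 0.0095 (without control replicate 3) to 0.12 (without control replicate 1).

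U2AF1, the subunit that reads the end of the intron, had the largest standard error of all members. Its FPKM was 37.6, 17.1 and 34.4 in control and 33.8, 37.6 and 24.1 in TAX-treated cells, so that control replicate 2 and TAX replicate 3 were low. The log2 fold change was 0.15 (standard error 0.25), from -0.20 without control replicate 2 to 0.35 without control replicate 1. GRCh38 carries a near-identical copy, U2AF1L5, on chromosome 21 from 6484623 to 6499261, whereas U2AF1 lies from 43092956 to 43107587 on the same strand. The 720 coding bases of these genes differ at 0 positions, and 96.3% of the 31-base words of U2AF1 transcripts recur in U2AF1L5. U2AF1L5 had 39.9, 54.3 and 36.8 FPKM in control, against 35.6, 40.7 and 51.8 FPKM under TAX, and was highest in the libraries in which U2AF1 was lowest. U2AF1 made up 48.0% to 48.7% of the sum of both in 4 libraries, 23.9% in control replicate 2 and 31.7% in TAX replicate 3. The sum itself was 77.5, 71.4 and 71.2 FPKM in control, against 69.4, 78.2 and 75.9 FPKM under TAX, with a coefficient of variation of 5.04% against 27.1% for U2AF1 alone. U2AF2, the partner subunit, had 50.9 ± 3.41 and 55.0 ± 1.87 FPKM (SD, n = 3 each), and the ratio of the sum to U2AF2 was 1.28 to 1.49. The value of U2AF1 alone is therefore of uncertain origin.

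**Figure D5:**
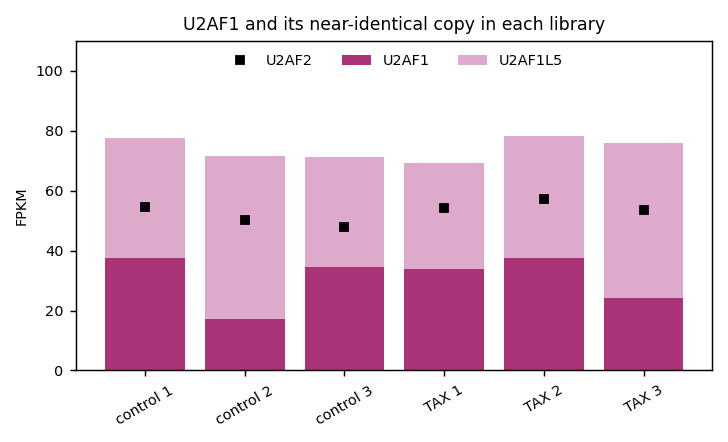
FPKM of U2AF1 (dark) and U2AF1L5 (light), stacked, and of U2AF2 (squares) in each library. The split between the copies changes in control replicate 2 and TAX replicate 3, while their sum stays between 69.4 and 78.2 FPKM.

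Many splicing factors limit their own level by making transcripts that are degraded. In GENCODE 29, all 12 SRSF genes had at least 1 transcript annotated as a target of nonsense-mediated decay, as had 13 of 22 tested hnRNP genes and 9 of the 12 further factors. In all, 73.9% of the tested members had one, compared with 44.5% of 11410 tested protein-coding names and 47.0% of those in the top 10% of control level. MATR3 had 0 such transcripts under both of its Ensembl genes, and RBM39 had 15. These are counts of annotation, and the tables give no value per transcript.

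Genes that work with these factors are read beside the shares of all tested genes given above, 0.477% by adjusted and 10.1% by unadjusted p, and counts near these shares are no result about the lists. Of 52 tested core components of the spliceosome, 0 were called in either direction, with a median log2 fold change of 0.042. SNRPB, an Sm protein and the highest of them, had 113 ± 8.43 FPKM in control, against 127 ± 7.35 FPKM under TAX (SD, n = 3 each). Among 11 kinases and phosphatases that act on SR proteins, 0 were called. SRPK1, the kinase that sends SR proteins into the nucleus, had 35.2 ± 1.82 FPKM in control, against 41.0 ± 1.00 FPKM under TAX (SD, n = 3 each). Higher TAX values without overlap were seen for 2 of the 11, SRPK1 and PPP1CA, beside 14.6% of all tested genes. Adjusted calls were also 0 among 22 SR-related genes, 41 other splicing regulators, 6 paraspeckle genes and 10 genes of the exon junction complex, with medians of -0.019, 0.050, 0.012 and 0.10. At an unadjusted p under 0.05 these lists gave 4 genes in all, SRPK1 and PPP1CA of the kinases and phosphatases and PUF60 and RBM3 of the regulators, with higher TAX values in each. SON, PCBP2, DDX39B and PPP1CC, each the most abundant gene of its list, had log2 fold changes of 0.071 to 0.10. NEAT1, the RNA scaffold of paraspeckles, is not analysed here.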

How the data were processed

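RNA was isolated with Trizol, and mRNA libraries were prepared with the Hieff NGS Ultima Dual-mode kit. The submitters' processing notes name HISAT2 2.2.0, StringTie 2.1.2 and GRCh38. The authors deposited 1 table of FPKM values per library, without pooling. The unit was read from the values, which are decimals with unequal sums, and from the MSTRG prefix of 3130 identifiers. Annotation, strand setting and treatment of reads with several matches are not given in the sources used here. From the deposited FPKM, log2(FPKM + 1) was computed for the 12359 genes that reached 1 FPKM in 3 or more of 6 libraries, and TAX was compared with control in limma 3.58.1 (R 4.3.3; lmFit, eBayes with trend, no covariate, Benjamini-Hochberg adjustment). Protein sequences were not used here. A fold change on this scale understates the change of low genes. The step was tested on simulated data, drawn gene by gene without shifts of whole libraries. That test therefore says nothing about differences in scale between the libraries. The members, lists and tests were chosen with earlier results of these data known. Every member may be named. By rule, library values are given for MATR3, SFPQ, NONO, U2AF1, the 3 most abundant members per family, members with an adjusted p under 0.05 and members with an unadjusted p under 0.05 without overlap. HNRNPR, HNRNPH1, SRSF1, SRSF8, SRSF11, SRSF12, SF1 and PTBP2 were added after their values were seen. Of related lists the most abundant and the called genes are named, and SRPK1, PPP1CA, PUF60 and RBM3 were added likewise. Some genes that the rule names are not reported here. Positions, overlaps, transcript types and 31-base words on the sense strand come from GENCODE 29, which matched all 50 members. Coding sequences were aligned with edlib 1.3.9.post1. Alternatives were a pseudocount of 0.1, a lower or no filter, quantile normalization, median centring, limma without trend, a replicate block and leaving out each library.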

Additional observations from a re-analysis of the deposited data

How the results depend on the processing

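Under 13 alternatives the log2 fold change of MATR3 stayed negative, from -1.29 to -1.03, which are also the lowest and highest values with 1 library left out. Its adjusted p (limma) was above 0.05, so that it was not called, in 2 cases. They were the fit without control replicate 3 (log2 fold change -1.12, adjusted p = 0.0556) and that with no filter on low values (-1.15, adjusted p = 0.121). With no filter, 20280 genes were tested and 1854 had an unadjusted p under 0.05. In the other alternatives the adjusted p of MATR3 (limma) lay between 0.00178 and 0.0209. The count of splicing factors called lower was accordingly 0 in these 2 cases and 1 in the rest, and 0 to 1 with 1 library left out. The count called higher was 0 throughout.

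Over all tested genes, the calls were 25 higher and 12 lower with the lower filter and 0 and 1 with no filter. Median centring gave 46 and 50, and quantile normalization 47 and 48. Leaving out 1 library gave 9 to 28 higher and 8 to 15 lower. The replicate block gave 13 higher and 13 lower, with MATR3 still called (adjusted p = 0.00178, limma). The labels do not say whether replicate numbers pair the samples. Deviations from the group mean correlated at -0.33 to -0.12 for same-numbered libraries and at -0.17 to 0.29 for different-numbered ones. With 3 libraries per group these values show no sign of pairing but cannot decide it. The block changed no call among the members.

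The median of the hnRNP genes was -0.049 after median centring and -0.061 after quantile normalization, and -0.018 to 0.040 with 1 library left out. That of the SRSF genes was 0.0082 and -0.0048 under these scalings and 0.012 to 0.085 with 1 library left out. No member other than MATR3 was called under any of the 13 alternatives. Of the 585 values of these members, 5 changed sign with a shift beyond the spread between replicates. They were those of HNRNPK and SRSF9 under both scalings and of HNRNPUL2 under quantile normalization. Shifts without a change of sign were not counted, such as that of SRSF1 from 0.14 to 0.082 after median centring, beyond its spread of 0.039. Depth is unknown, so no counting error can be given. The cause of these shifts was not tested.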
